A study of Mus musculus with 6 samples.

Results

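The cadherins and protocadherins of mouse marrow mesenchymal stem cells were described after knock-down of the formin Dia2. The members were all rows of the deposited gene table whose symbol starts with Cdh followed by a digit, or with Pcdh. They numbered 94 of 23358 rows, and comprised 23 cadherins, 12 protocadherins outside the genomic clusters and 59 clustered protocadherins. The study measured RNA by bulk sequencing in mesenchymal stem cells from the bone marrow of C57BL/6 mice, adherent progenitors that can form bone, fat and cartilage cells. Of the 6 libraries, 3 are of cells that received a non-targeting control siRNA and 3 of cells in which Dia2 was the siRNA target. Dia2 is encoded by Diaph3 (Diap3 in the table) and builds unbranched actin filaments. Cells of both groups were at passage 6 to 12, plated at 6000 per cm2, left to attach for 24 h, exposed to 50 nM siRNA overnight and harvested 24 h after the medium was changed. A rescue or another siRNA against Dia2 was not analysed here. Whether replicate libraries stem from separate cultures is not said in the labels, so each p-value rests on a spread among libraries that could be purely technical.

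Cadherins are membrane proteins that hold cells together through calcium-dependent repeats outside the cell. Classical cadherins of type I and type II bind β-catenin and p120-catenin inside the cell and through α-catenin reach the actin cytoskeleton, and N-cadherin (Cdh2) and cadherin-11 (Cdh11) are the classical cadherins best known from mesenchymal and bone-forming cells. Protocadherins have similar repeats but do not bind the catenins in this way, and the delta subfamily engages regulators of branched actin. In the alpha and gamma clusters a variable exon with its own promoter is spliced to exons shared by the whole cluster, whereas each beta gene is a separate gene, and in neurons single cells choose different members of the clusters with the help of CTCF and cohesin.

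Total counts per library ran from 70538768 to 110006338, and the share of the ribosomal RNA row Rn45s ran from 6.00% to 11.7%, with the highest shares in control replicate 3 and Dia2 replicate 1. Values are given as CPM, each count relative to the library total after scaling by TMM factors. A level of 3 fragments corresponded to 0.0534 to 0.0870 CPM, which covers counting error only. The siRNA target Diaph3 (row Diap3) measured 84.7, 80.1 and 84.8 CPM in control and 7.52, 8.37 and 7.39 CPM in Dia2 siRNA libraries, a 10.7-fold lower mean (log2 fold change -3.42 ± 0.07 SE, adjusted p = 1.66e-11, edgeR's quasi-likelihood test with Benjamini-Hochberg adjustment). Of 13 markers of mesenchymal stem cells 12 passed the filter on low counts, and 11 of them were higher and 0 lower with Dia2 siRNA, beside 29.3% and 29.9% of all genes tested. The list's summed level was 7744 to 8582 CPM in control and 12206 to 12627 CPM in Dia2 siRNA libraries. Col1a1 alone held 4078 to 5133 CPM of it in control and 6450 to 6839 CPM in Dia2 siRNA libraries. Thy1, which is commonly used to define these cells, had at most 10 counts in any library. In bulk RNA, a change in the number of cells of a type and a change in the RNA per cell cannot be told apart.

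Most of the cadherin and protocadherin rows that could be tested had more RNA after Dia2 knock-down, and most of those rows were clustered protocadherins. Of the 94 members 11 had no count in any library and 59 passed the filter, while the untested members reached at most 20 counts. Among the 59 tested members 39 were higher, 3 were lower (Pcdh19, Pcdh9 and Cdh26) and 17 did not pass an adjusted p of 0.05. The background was broad, since 59.2% of the 14151 genes tested passed, 29.3% as higher and 29.9% as lower. The members' shares were 66.1% higher and 5.08% lower, and their median log2 fold change was 0.74 beside 0.01 over all genes tested. Of the tested members 42 were clustered protocadherins, whose rows can share exons or near-identical sequence, with 31 higher (73.8%) and 0 lower. Of 11 tested cadherins 7 were higher and 1 lower (63.6% and 9.09%). Of 6 tested non-clustered protocadherins 1 was higher and 2 lower (16.7% and 33.3%). A change of at least 2-fold was called upward for 14 members and downward for 0, against a background of 5.82% upward and 2.76% downward. The 14 include Pcdhb9, Pcdhb13, Pcdhb3 and Cdh19, which passed the filter only through the Dia2 siRNA libraries. These could be tested only because they were high there, so the count of 14 is a description.

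The ranges of the libraries showed the same balance. All 3 Dia2 siRNA libraries lay above all 3 control libraries for 44 of the tested members and below them for 3, beside 32.3% and 32.2% of all genes tested, and 12 members overlapped. Because many members are scarce, the background was also taken over genes with a mean under 10 CPM, a split chosen after the members' levels were seen. In that range 27.5% of 5309 genes were higher and 15.9% lower, and of 49 members 32 were higher and 2 lower. Among the 10 members at 10 CPM or more, 7 were higher and 1 was lower, beside 30.3% and 38.3% of the 8842 genes in that range. The filter let in 7 members through the Dia2 siRNA libraries alone (Pcdhb9, Pcdhb13, Pcdhb12, Pcdhb4, Pcdha10, Pcdhb3 and Cdh19), of which 4 were called higher. These could be tested only because they were high there, so the counts are a description. With the requirement of a mean of at least 1 CPM over all 6 libraries, which does not look at the groups, 39 members were tested, 30 of them higher and 3 lower. A mean over all libraries is still raised by a high group. Cdh18, Pcdhac2, Cdh13, Pcdhga4 and Pcdhb15 had control means under 1 CPM and reached it through the Dia2 siRNA libraries. All of them were called higher in the main fit, so these counts are a description too. Without control replicate 3 and Dia2 replicate 1, the libraries richest in Rn45s, 61 members were tested, 42 of them higher and 3 lower. The background moved as well. In the main fit 8380 genes passed in either direction, and over the alternatives 7343 to 9193 did. Fewer genes passed with the minimum of 1 CPM than in the main fit, and more without the libraries richest in Rn45s. The shares of all genes higher and lower were not taken for these fits, so their member counts have no matching background.

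**Figure D1:**
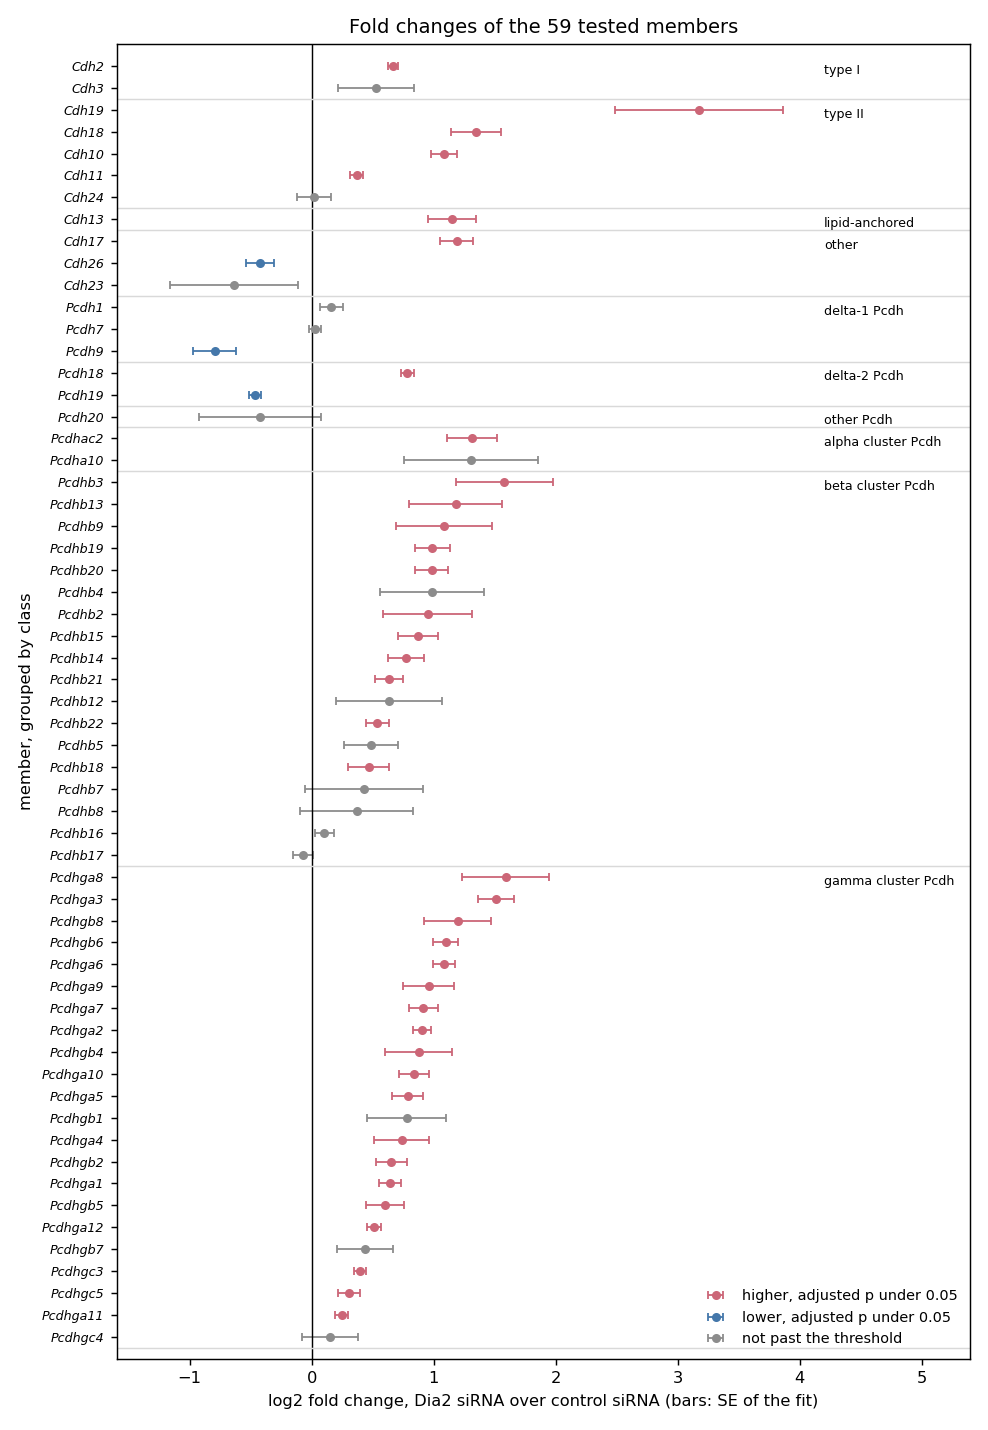
Log2 fold changes (Dia2 siRNA over control siRNA, horizontal axis) of the 59 members that passed the filter, grouped by class, with bars of 1 standard error of the edgeR fit from 3 libraries a group. Points in red were higher and points in blue lower at an adjusted p under 0.05; the 3 blue points are Pcdh9, Pcdh19 and Cdh26.

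Among the classical cadherins the 2 abundant genes both rose. Cdh11, a type II cadherin of mesenchyme and osteoblasts (GRCm38 chromosome 8, 102632995 to 102785111), measured 355, 384 and 394 CPM in control and 476, 497 and 487 CPM in Dia2 siRNA libraries. All treated libraries lay above all control libraries, and the rise was 1.29-fold (log2 fold change 0.37 ± 0.05 SE, adjusted p = 5.71e-05). Cdh2, the type I N-cadherin (chromosome 18, 16588877 to 16809049), measured 113, 108 and 109 CPM in control and 175, 177 and 171 CPM in Dia2 siRNA libraries. Its groups were also separate, with a 1.59-fold rise (log2 fold change 0.67 ± 0.04 SE, adjusted p = 8.99e-08). Per length, in the deposited RPKM, the ratio of Cdh2 to Cdh11 was 0.289, 0.254 and 0.251 in control and 0.334, 0.323 and 0.319 in Dia2 siRNA libraries. The ratios did not overlap between the groups, and the exact two-sided permutation p was 0.1, the smallest that 3 against 3 libraries can give.

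The other classical cadherins were scarce. Cdh10 and Cdh18, type II cadherins known mainly from the nervous system, rose from low levels. Cdh10 measured 2.15, 2.43 and 2.41 CPM in control and 4.86, 5.23 and 4.70 CPM in Dia2 siRNA libraries (log2 fold change 1.09 ± 0.11 SE, adjusted p = 3.54e-06). Cdh18 measured 0.641, 0.584 and 0.957 CPM against 1.67, 1.79 and 2.01 CPM (1.35 ± 0.21 SE, adjusted p = 0.000134). Neither gene's groups overlapped. Cdh19, a type II cadherin known from neural crest derivatives, had 0, 4 and 2 counts in control and 20, 20 and 18 counts in Dia2 siRNA libraries. With each fragment counted as 2, that is 3 against 29 fragments, a ratio of 9.61 with an exact 95% interval of 2.98 to 49.3 for counting error only, and an adjusted p of 0.00167. Cdh19 passed the filter only through the Dia2 siRNA libraries and could be tested only because it was high there, so these values are a description. The fitted log2 fold change, which depends on the prior count at so few counts, went from 3.18 to 2.43 without control replicate 1 (adjusted p = 0.00827) and to 4.13 without control replicate 2 (adjusted p = 0.00276). Cdh24 did not pass, with 4.38, 3.60 and 3.05 CPM against 3.43, 3.62 and 4.21 CPM (adjusted p = 0.91). Of the type I cadherins, Cdh3 (P-cadherin) did not pass at under 0.5 CPM, and E-cadherin, Cdh1, was untested with 2, 0 and 0 counts in control and 4, 20 and 10 counts in Dia2 siRNA libraries. The endothelial cadherin Cdh5 had 0, 0 and 0 against 4, 0 and 4 counts. Cdh15, the muscle cadherin, was at 0 in all 6 libraries.

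Cadherins outside the classical types moved both ways. Cdh13, or T-cadherin, which is held in the membrane by a lipid anchor and lacks the catenin-binding tail, measured 0.605, 0.633 and 0.667 CPM in control and 1.62, 1.42 and 1.20 CPM in Dia2 siRNA libraries (log2 fold change 1.15 ± 0.20 SE, adjusted p = 0.000318). Cdh17, a cadherin best known from liver and intestine, measured 1.30, 1.12 and 1.31 CPM against 2.79, 2.98 and 2.74 CPM (1.19 ± 0.13 SE, adjusted p = 1.11e-05). Both rose more than 2-fold with no overlap. Cdh26 fell, from 3.13, 3.29 and 2.96 CPM to 2.21, 2.35 and 2.41 CPM (-0.43 ± 0.11 SE, adjusted p = 0.00677). Cdh23, part of the tip links of hair cells, did not pass (-0.64 ± 0.52 SE, adjusted p = 0.318), nor without Dia2 replicate 2 (-1.34, adjusted p = 0.0900), and Cdh16 was untested.

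The non-clustered protocadherins differed among themselves. Of the 12, 6 were tested, 1 was higher, 2 were lower and 3 did not pass. The 3 abundant ones, Pcdh18, Pcdh19 and Pcdh7, went up, down and neither, and the bases before their annotated starts are shown for that reason. The sequences are from RefSeq (GRCm38.p6), written 5′ to 3′ on the gene's strand with CpG dinucleotides in capitals. Each begins 250 bases before the RefSeq start and stops ahead of the earliest start given by RefSeq, the deposited table or GENCODE, so they differ in length. They lie at chr3:49757326-49757566 on the minus strand for Pcdh18 (241 bases), chrX:133688994-133689243 on the minus strand for Pcdh19 (250 bases) and chr5:57717831-57717966 on the plus strand for Pcdh7 (136 bases).
Pcdh18: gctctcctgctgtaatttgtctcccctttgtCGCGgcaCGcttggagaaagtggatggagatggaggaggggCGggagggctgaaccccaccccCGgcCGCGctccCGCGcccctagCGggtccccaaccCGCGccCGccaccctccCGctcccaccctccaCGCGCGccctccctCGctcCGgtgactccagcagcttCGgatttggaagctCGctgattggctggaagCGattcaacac
Pcdh19: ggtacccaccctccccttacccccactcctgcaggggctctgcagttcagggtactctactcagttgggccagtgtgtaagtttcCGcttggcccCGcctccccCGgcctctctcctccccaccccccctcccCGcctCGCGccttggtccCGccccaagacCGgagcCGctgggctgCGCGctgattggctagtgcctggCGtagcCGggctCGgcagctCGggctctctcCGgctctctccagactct
Pcdh7: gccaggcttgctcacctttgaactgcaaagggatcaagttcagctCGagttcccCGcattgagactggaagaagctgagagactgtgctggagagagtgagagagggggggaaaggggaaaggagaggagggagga
RefSeq windows of 300 bases, from 250 before to 50 after the start, were matched for 22 members, 10 of them tested. Over all 32851 such windows the median G or C content was 52.7% and the median number of CpG was 7. The same 300-base windows held 23 CpG for Pcdh18 (63% G or C), 18 for Pcdh19 (67.7%) and 11 for Pcdh7 (59.3%). Among the other tested members with a window, Cdh10 and Cdh18, which were higher, had 2 and 12 CpG. Cdh26 and Pcdh9, which were lower, had 4 and, in separate windows, 18 and 19. Cdh24, Cdh23 and Pcdh20, which did not pass, had 30, 5 and 4. The number of CpG did not sort these genes by their call. The E-box words CAGGTG and CACCTG, each the reverse complement of the other and the letters that Snail and ZEB factors bind, were in 20.2% of all windows on either strand. They were found in the windows of 3 members, Cdh7, Pcdh15 and Pcdh7. In Pcdh7 the word starts at base 33 after the RefSeq start, so it lies downstream of that start and outside the upstream bases shown above. It is shown in capitals with its neighbours (chr5:57718101-57718130, plus strand).
Pcdh7 E-box word: gcgggccgaatgCAGGTGagggaaggcacg
A match is a description of these letters and shows no binding.

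Pcdh18, a delta-2 protocadherin (GRCm38 chromosome 3, 49743296 to 49757316), rose from 28.2, 27.2 and 27.6 CPM in control to 48.2, 47.4 and 47.3 CPM in Dia2 siRNA libraries. The groups were separate, with a 1.72-fold rise (log2 fold change 0.78 ± 0.05 SE, adjusted p = 1.43e-07). Pcdh19 (chromosome X, 133582861 to 133688993), the delta-2 protocadherin mutated in an X-linked epilepsy, fell from 75.0, 78.2 and 80.9 CPM to 58.5, 56.3 and 54.5 CPM. Its groups were separate in the other direction (-0.47 ± 0.05 SE, adjusted p = 6.22e-06). In RPKM, the ratio of Pcdh18 to Pcdh19 was 0.749, 0.693 and 0.679 in control and 1.64, 1.68 and 1.73 in Dia2 siRNA libraries. The order of this pair in RPKM was thus opposite in the groups, while in CPM Pcdh19 stayed above Pcdh18 in all libraries. Since 1 gene rose and the other fell without overlap, the ratios had to separate, and no p-value is given for them.

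Pcdh7 (chromosome 5, 57718021 to 58132240), a delta-1 protocadherin, measured 44.4, 46.6 and 47.0 CPM in control and 48.0, 47.4 and 45.4 CPM in Dia2 siRNA libraries. The groups overlapped (log2 fold change 0.03 ± 0.05 SE, adjusted p = 0.655). Pcdh9, of the same subfamily, fell from 1.67, 2.51 and 2.23 CPM to 1.22, 1.15 and 1.30 CPM without overlap (-0.80 ± 0.18 SE, adjusted p = 0.002). Pcdh1, the third tested delta-1 gene, measured 3.65, 3.60 and 3.54 CPM in control and 3.88, 4.02 and 4.17 CPM in Dia2 siRNA libraries. Its libraries did not overlap, but the difference did not pass (0.16 ± 0.10 SE, adjusted p = 0.172). Pcdh20 did not pass either, at under 0.3 CPM. Pcdh8, Pcdh10, Pcdh12, Pcdh15 and Pcdh17 were untested, with at most 18 counts, and the remaining delta-1 row was at 0.

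**Figure D2:**
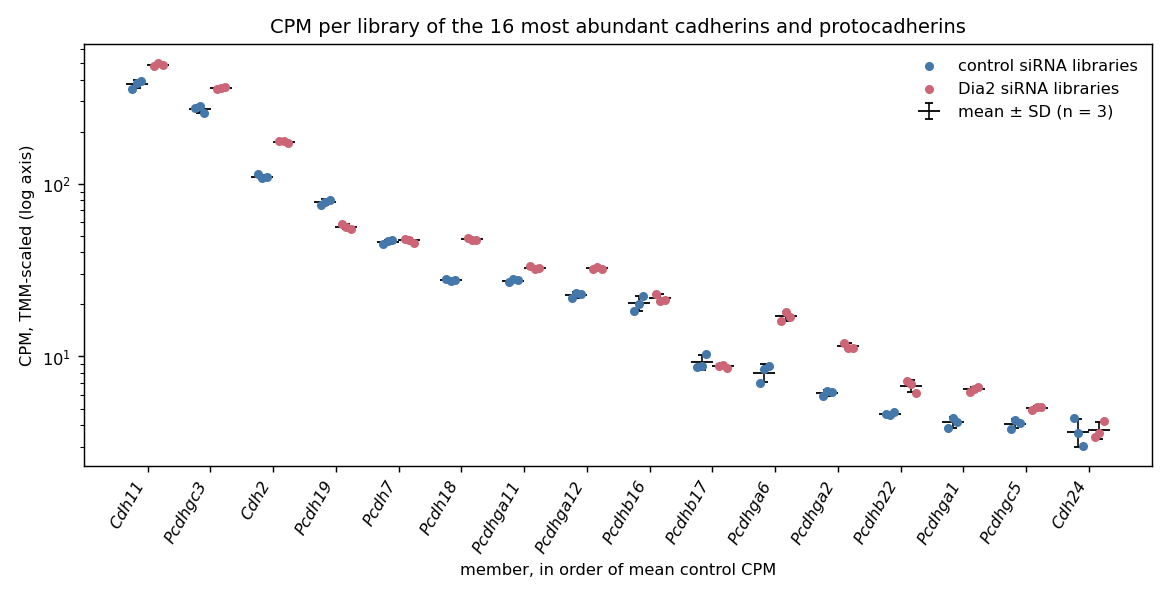
CPM on a log axis of the 16 most abundant members in each of the 3 control siRNA and 3 Dia2 siRNA libraries, with the mean and SD of each group, ordered by the control mean. Pcdh19 is the member among these whose Dia2 siRNA libraries (54.5 to 58.5 CPM) lie below all its control libraries (75.0 to 80.9 CPM).

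The gamma protocadherins moved together. All 22 gamma rows were tested; 19 were higher, 0 were lower and 3 (Pcdhgc4, Pcdhgb7 and Pcdhgb1) did not pass. The cluster lies on chromosome 18, with rows ending near 37841872, and its rows share 3 exonic blocks of 2116 bases in GENCODE release M21. If each read was counted for 1 row only, the sum over the cluster does not depend on how shared reads were split. Whether shared reads were left out or counted to several rows is not said in the sources used here. That sum was 361, 378 and 350 CPM in control and 493, 502 and 499 CPM in Dia2 siRNA libraries. The summed groups were separate (log2 fold change 0.46 ± 0.05 SE, adjusted p = 4.24e-06, with each cluster fitted as 1 row).

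Pcdhgc3, a C-type gamma protocadherin, carried most of these counts. It measured 273, 283 and 256 CPM in control and 351, 358 and 360 CPM in Dia2 siRNA libraries, with no overlap (1.32-fold, log2 fold change 0.40 ± 0.05 SE, adjusted p = 1.94e-05). Its share of gamma counts was 75.6%, 74.8% and 73.1% in control and 71.3%, 71.3% and 72.2% in Dia2 siRNA libraries. The shares were lower in all 3 treated libraries (exact two-sided permutation p = 0.1, the smallest possible). The gamma rows other than Pcdhgc3 summed to a mean of 92.5 CPM in control and 141 CPM in Dia2 siRNA libraries. The C-type rows beside it were Pcdhgc5, at 3.83, 4.29 and 4.15 CPM against 4.92, 5.10 and 5.11 CPM (0.31 ± 0.09 SE, adjusted p = 0.0132), and Pcdhgc4, the gamma isoform tied to neuron survival, whose groups overlapped (0.15 ± 0.23 SE, adjusted p = 0.593). The call for Pcdhgc5 was lost without control replicate 1 (0.25, adjusted p = 0.0600).

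All 12 A-type gamma rows and 5 of 7 B-type rows were higher. Pcdhga11 was the most abundant A-type row and had the smallest called rise of its type, from 26.9, 28.0 and 27.5 CPM to 33.3, 32.2 and 32.3 CPM (log2 fold change 0.25 ± 0.05 SE, adjusted p = 0.00187). Pcdhga12 rose from 21.7, 23.3 and 23 CPM to 32.2, 32.8 and 31.9 CPM (0.51 ± 0.06 SE, adjusted p = 9.4e-06). Neither overlapped between groups. Pcdhga6 rose 2.12-fold, from 6.98, 8.47 and 8.76 CPM to 16.1, 18.2 and 16.9 CPM (1.09 ± 0.09 SE, adjusted p = 6.84e-07). Pcdhga3 rose 2.85-fold, from 1.67, 1.22 and 1.39 CPM to 4.04, 4.56 and 3.72 CPM (1.51 ± 0.15 SE, adjusted p = 2.79e-06). Both were separate between groups. Pcdhgb6 rose from 2.63, 2.90 and 2.64 CPM to 6.19, 5.56 and 5.75 CPM (1.10 ± 0.10 SE, adjusted p = 1.69e-06). Pcdhga8, at 0.122 to 0.231 CPM in control, rose by 1.59 ± 0.36 SE on the log2 scale (adjusted p = 0.00209), and Pcdhgb8, a polymorphic pseudogene in GENCODE, by 1.20 ± 0.28 SE (adjusted p = 0.00254).

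The other called A-type rows were Pcdhga2 (log2 fold change 0.91), Pcdhga1 (0.64), Pcdhga10 (0.84), Pcdhga7 (0.91), Pcdhga5 (0.79), Pcdhga9 (0.96) and Pcdhga4 (0.74). The other called B-type rows were Pcdhgb2 (0.65), Pcdhgb5 (0.60) and Pcdhgb4 (0.88). Of these, Pcdhga4 lost its call without Dia2 replicate 2 (0.65, adjusted p = 0.0581) or 3 (0.65, adjusted p = 0.0560). Pcdhgb4 lost its call without control replicate 1 (0.72, adjusted p = 0.0713) or Dia2 replicate 1 (0.72, adjusted p = 0.0736). Pcdhgb7 (0.44, adjusted p = 0.118) and Pcdhgb1 (0.78, adjusted p = 0.0557) did not pass, but Pcdhgb1 lay near the threshold. It passed without control replicate 3 (0.99, adjusted p = 0.0364), and over all 6 libraries with upper-quartile factors (adjusted p = 0.0471), limma-voom (adjusted p = 0.0482) or halved counts (adjusted p = 0.0415). The shared exons were not added to every row, since Pcdhga8 had 10 to 62 counts where Pcdhgc3 had 17654 to 34384. The sources used here do not say how reads of shared exons and near-identical rows were assigned, so the split between rows is uncertain.

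**Figure D3:**
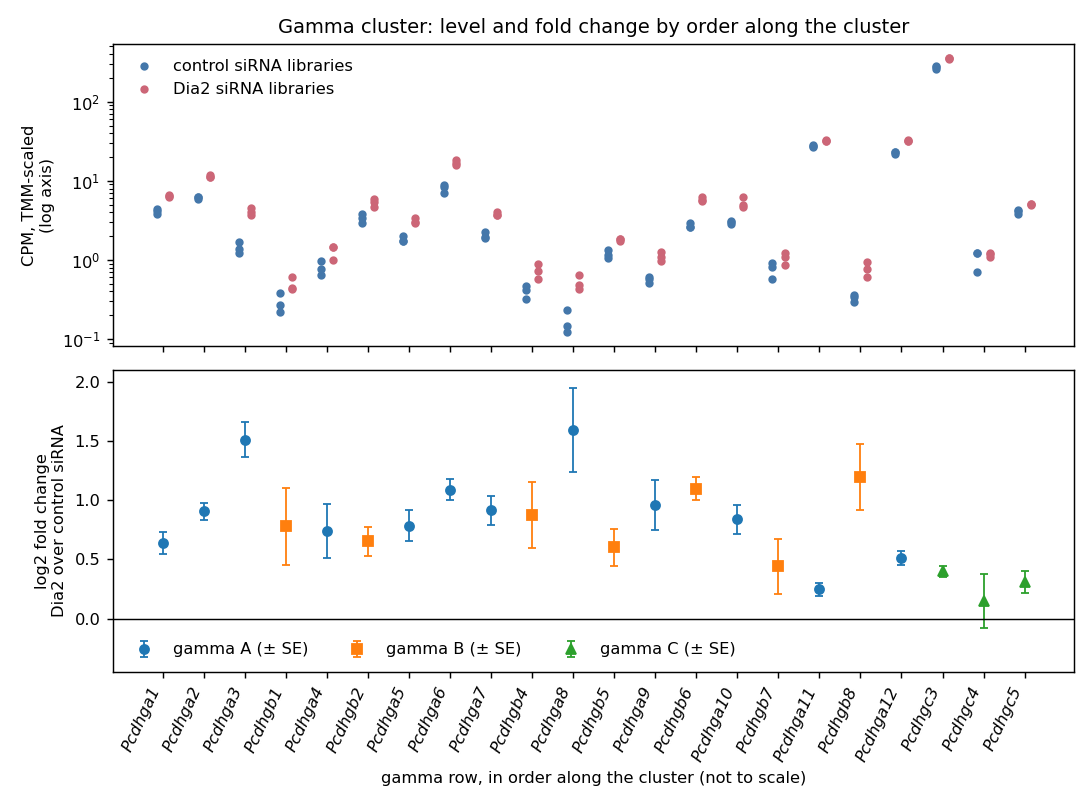
The 22 gamma rows in their order along the cluster (not to scale): CPM per library on a log axis (upper panel) and log2 fold change with 1 standard error of the edgeR fit (lower panel), with A-, B- and C-type rows marked. Every point in the lower panel lies above 0, from 0.15 for Pcdhgc4 to 1.59 for Pcdhga8.

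Of the 22 beta rows 18 were tested, 11 were higher, 0 were lower and 7 did not pass. Pcdhb9, Pcdhb13, Pcdhb12, Pcdhb4 and Pcdhb3 passed the filter only through the Dia2 siRNA libraries, so they could be tested only because they were high there. Among them Pcdhb9, Pcdhb13 and Pcdhb3 were called higher. The 2 most abundant beta rows were among those that did not pass the threshold. Pcdhb16 measured 18.3, 20.1 and 22.4 CPM in control and 23, 21 and 21.2 CPM in Dia2 siRNA libraries (log2 fold change 0.10 ± 0.08 SE, adjusted p = 0.274), and it passed when control replicate 3 was left out (0.18, adjusted p = 0.0150). Pcdhb17 measured 8.70, 8.81 and 10.3 CPM against 8.82, 8.95 and 8.61 CPM (-0.07 ± 0.08 SE, adjusted p = 0.462). Both genes' groups overlapped. Together they held 59.4%, 58.7% and 60.1% of beta counts in control and 48.7%, 46.2% and 49.0% in Dia2 siRNA libraries, and the groups of shares did not overlap. Since this pair did not pass and the other beta rows together rose, the share was bound to fall, and no p-value is given for it. The beta rows outside this pair summed to a mean of 20.2 CPM in control and 33.1 CPM in Dia2 siRNA libraries. The whole cluster summed to 45.4, 49.3 and 54.4 CPM in control and to 65.4, 64.7 and 60.8 CPM in Dia2 siRNA libraries (0.36 ± 0.06 SE, adjusted p = 0.000432).

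The beta rows with the clearest rises were of intermediate level. Pcdhb19 rose from 2.31, 2.80 and 3.57 CPM to 6.09, 5.81 and 5.15 CPM (log2 fold change 0.99 ± 0.14 SE, adjusted p = 8.49e-05). Pcdhb20 rose from 1.58, 1.70 and 1.68 CPM to 3.37, 3.62 and 2.82 CPM (0.98 ± 0.13 SE, adjusted p = 5.34e-05). Neither overlapped between groups. Also higher were Pcdhb22 (log2 fold change 0.54), Pcdhb21 (0.63), Pcdhb14 (0.77), Pcdhb15 (0.88) and Pcdhb3 (1.58, at under 0.4 CPM in all libraries). The last 4 called rows, Pcdhb18, Pcdhb13, Pcdhb9 and Pcdhb2, lay near the threshold and lost their calls in several alternatives. Pcdhb18 (0.47, adjusted p = 0.0310) lost its call without control replicate 1 (0.49, adjusted p = 0.0645), control replicate 2 (0.34, adjusted p = 0.128) or Dia2 replicate 2 (0.29, adjusted p = 0.178). Pcdhb13 (1.18, adjusted p = 0.0188) lost it without control replicate 1 (0.97, adjusted p = 0.0898), control replicate 2 (1.21, adjusted p = 0.0514) or Dia2 replicate 2 (0.97, adjusted p = 0.0988). Pcdhb9 (1.08, adjusted p = 0.0324) lost it without control replicate 2 (0.87, adjusted p = 0.125), control replicate 3 (0.96, adjusted p = 0.0877), Dia2 replicate 2 (0.99, adjusted p = 0.105) or Dia2 replicate 3 (1.06, adjusted p = 0.0811), and with no filter beyond 1 count (adjusted p = 0.0520). Pcdhb2 (0.95, adjusted p = 0.0412) lost it without control replicate 1 (0.77, adjusted p = 0.158), control replicate 2 (0.76, adjusted p = 0.152) and each Dia2 replicate (0.92 to 0.98, adjusted p = 0.0816 to 0.103), with the DESeq2 test (adjusted p = 0.0556) and with no filter beyond 1 count (adjusted p = 0.0579). Pcdhb5 did not pass although its groups were separate, at 0.605, 0.974 and 0.870 CPM against 1.06, 1.06 and 1.26 CPM (0.48 ± 0.22 SE, adjusted p = 0.0784). Pcdhb7, Pcdhb12, Pcdhb4 and Pcdhb8 did not pass either, and in Pcdhb7 Dia2 replicate 1 stood apart at 1.01 CPM beside 0.333 and 0.235 CPM in the other Dia2 siRNA libraries (0.43, and -0.42 without it). Pcdhb4 (0.98, adjusted p = 0.0655) passed with limma-voom (1.06, adjusted p = 0.0446) and without the 2 libraries richest in Rn45s (1.32, adjusted p = 0.0475). The 4 untested beta rows had at most 14 counts. Beta genes are near-identical in places, so reads could have been split between them.

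The alpha cluster was barely expressed. Of its 15 rows 5 were at 0 in all libraries and 2 were tested, of which Pcdha10 passed the filter only through the Dia2 siRNA libraries. Pcdhac2, a C-type alpha protocadherin, rose from 0.587, 0.95 and 0.638 CPM to 1.78, 1.69 and 1.92 CPM with no overlap (log2 fold change 1.32 ± 0.21 SE, adjusted p = 0.000152). Pcdha10 did not pass (1.31 ± 0.55 SE, adjusted p = 0.0573), and its highest library was Dia2 replicate 2, at 0.521 CPM beside 0.159 and 0.150 CPM in the other Dia2 siRNA libraries. Without that library the log2 fold change was 0.44 (adjusted p = 0.512), and it passed without Dia2 replicate 1 (1.56, adjusted p = 0.0394) or 3 (1.61, adjusted p = 0.0286). The cluster summed to 0.765, 1.12 and 0.812 CPM in control and to 2.13, 2.44 and 2.35 CPM in Dia2 siRNA libraries (1.37 ± 0.18 SE, adjusted p = 3.3e-05), most of it from Pcdhac2.

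Per length, Cdh11 led in both groups. In the deposited RPKM the control means were 76.3 ± 3.34 for Cdh11, 49.3 ± 4.43 for Pcdhgc3 and 20.2 ± 1.11 for Cdh2 (SD, n = 3 libraries). Pcdh19 followed at 6.46 ± 0.171, then Pcdhga11 at 4.97 ± 0.236, Pcdh18 at 4.56 ± 0.215 and Pcdh7 at 4.31 ± 0.157. Among these last 3, neighbours differed by no more than the sum of their SDs, and the first 3 genes kept their places in Dia2 siRNA libraries. There the means were 96.0 ± 5.73 for Cdh11, 63.2 ± 3.52 for Pcdhgc3 and 31.2 ± 1.17 for Cdh2, followed by Pcdh18 at 7.65 ± 0.252, while Pcdh19 at 4.55 ± 0.0501 took the place after Pcdhga12. For gamma rows the listed length of 4480 to 5079 bases includes shared exons whose reads may not have been counted to each row, so their order against other genes is uncertain. The members together held 1071 ± 26.6 CPM in control and 1400 ± 16.2 CPM in Dia2 siRNA libraries.

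Genes that work with cadherins were called in both directions. Over 7 lists of partner and regulator genes, 98 of 114 genes were tested, 39 higher (39.8%) and 25 lower (25.5%), beside 29.3% and 29.9% of all genes tested, and the counts by list are read against those shares. Of the catenins and plakophilins 4 of 11 were higher and 2 lower (median log2 fold change 0.20). β-catenin, Ctnnb1, measured 698, 721 and 686 CPM in control and 664, 664 and 664 CPM in Dia2 siRNA libraries and did not pass (-0.08 ± 0.04 SE, adjusted p = 0.130), but did without control replicate 3 (-0.10, adjusted p = 0.00951). α-catenin, Ctnna1, measured 391, 394 and 375 CPM against 422, 420 and 424 CPM and passed narrowly (0.13 ± 0.04 SE, adjusted p = 0.0258), a call lost without control replicate 1 (0.13, adjusted p = 0.0584) or Dia2 replicate 1 (0.12, adjusted p = 0.0844), 2 (0.13, adjusted p = 0.0927) or 3 (0.12, adjusted p = 0.119) and with no filter beyond 1 count (adjusted p = 0.0617). p120-catenin, Ctnnd1, which holds cadherins at the surface, fell from 464, 465 and 458 CPM to 412, 412 and 417 CPM (-0.16 ± 0.04 SE, adjusted p = 0.00616). Jup, or γ-catenin, rose from 16.3, 17.6 and 14.1 CPM to 23.6, 25.7 and 25.1 CPM (0.63 ± 0.08 SE, adjusted p = 2.6e-05). Pkp4 rose by 0.34 and Ctnnbip1, an inhibitor of β-catenin, by 0.22 on the log2 scale, and the desmosomal Pkp2 fell by 0.29. The call for Ctnnbip1 was lost without Dia2 replicate 3 (0.18, adjusted p = 0.0705).

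Of 20 junction adaptors and nectins 7 were higher and 7 lower, 35% each (median log2 fold change 0.06). Nectin2, a calcium-independent adhesion molecule of the same junctions, fell from 73.4, 67.9 and 60.4 CPM to 36.0, 36.3 and 35.3 CPM (-0.91 ± 0.07 SE, adjusted p = 2.86e-07). Plekha7, which ties p120-catenin to microtubules, fell by 0.96, while the scaffold Magi2 rose by 0.87 and the receptor phosphatase Ptprf by 0.79. Of 11 tested genes of the wider cadherin superfamily 6 were higher and 0 lower (median 0.38), led by Cdhr1, the photoreceptor cadherin, at 33.0, 38.2 and 32.8 CPM against 74.6, 75.3 and 72.5 CPM (1.10 ± 0.06 SE, adjusted p = 4.08e-08). Fat4 and its ligand Dchs1 each had a log2 fold change of 0.55 and the desmosomal Dsc2 one of 0.49. Dchs1 lost its call without Dia2 replicate 3 (0.44, adjusted p = 0.0649).

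Among 11 genes of cadherin shedding and turnover 4 were higher and 3 lower (median log2 fold change 0.12). Adam10, the main sheddase of N-cadherin, rose from 124, 123 and 144 CPM to 222, 206 and 202 CPM (0.69 ± 0.06 SE, adjusted p = 2.31e-06). Ncstn, a subunit of γ-secretase, rose by 0.38 and the proprotein convertase Pcsk6 by 0.77, and Cbll1 (Hakai), the ubiquitin ligase of E-cadherin, fell by 0.71.

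The transcription factors known to act on cadherin genes in epithelial-mesenchymal transition went both ways, with 7 of 13 higher and 3 lower (median log2 fold change 0.25). Zeb1, a repressor of E-cadherin, rose from 45.1, 47.6 and 51.3 CPM to 103, 105 and 104 CPM (1.11 ± 0.05 SE, adjusted p = 1.01e-08). Twist2 fell from 30.3, 28.5 and 26.8 CPM to 10.6, 10.6 and 10.6 CPM (-1.43 ± 0.06 SE, adjusted p = 5.62e-09). Klf8 rose by 1.03. Snai3 had under 0.2 CPM in every library and passed the filter only through the Dia2 siRNA libraries, so that it could be tested only because it was high there; 6 of the list were higher without it. Its call (1.74 ± 0.70 SE, adjusted p = 0.0487) was lost without control replicate 2 (1.21, adjusted p = 0.134), control replicate 3 (1.57, adjusted p = 0.0876) or Dia2 replicate 1 (1.71, adjusted p = 0.105), 2 (1.66, adjusted p = 0.117) or 3 (1.84, adjusted p = 0.0753). It was also lost with no filter (adjusted p = 0.0834), the DESeq2 test (adjusted p = 0.0555), without the Rn45s row (adjusted p = 0.0509) and without the 2 libraries richest in it (1.53, adjusted p = 0.110). Without control replicate 1 the value was 3.36 (adjusted p = 0.0133).

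Of 17 regulators of chromatin at the protocadherin clusters 5 were higher (29.4%) and 6 lower (35.3%), close to the shares of all genes (median log2 fold change -0.04). Ctcf, named for its role in the choice of cluster promoters and not by the size of its change, measured 74.5, 74.5 and 79.0 CPM against 75.8, 72.3 and 73.5 CPM with overlap (adjusted p = 0.465). The cohesin subunit Rad21 fell from 293, 293 and 302 CPM to 220, 220 and 219 CPM (-0.43 ± 0.04 SE, adjusted p = 2.93e-06). Nipbl, the cohesin loader, rose by 0.57. Smchd1, which represses the clusters in several tissues, rose by 0.40, and Zfp143 fell by 0.53. Of 16 protocadherin partners, mostly of the WAVE complex that starts branched actin, 6 were higher and 4 lower (median 0.07). Wasf1 fell from 18, 20.3 and 19.7 CPM to 11.2, 11.5 and 11.1 CPM (-0.78 ± 0.06 SE, adjusted p = 6.38e-07) and Abi2 fell by 0.78. Wasf3, at 0.755 to 1.16 CPM in control, rose by 1.18. Cyfip2 had under 0.5 CPM in every library and likewise passed the filter only through the Dia2 siRNA libraries; 5 of the list were higher without it. Its call (1.69 ± 0.57 SE, adjusted p = 0.0218) was lost without control replicate 2 (1.77, adjusted p = 0.0564), without Dia2 replicate 1 (1.57, adjusted p = 0.0698) or without the 2 libraries richest in Rn45s (1.09, adjusted p = 0.0596). Its log2 fold change ran from 1.22 without control replicate 3 (adjusted p = 0.0261) to 2.42 without control replicate 1 (adjusted p = 0.0176).

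**Figure D4:**
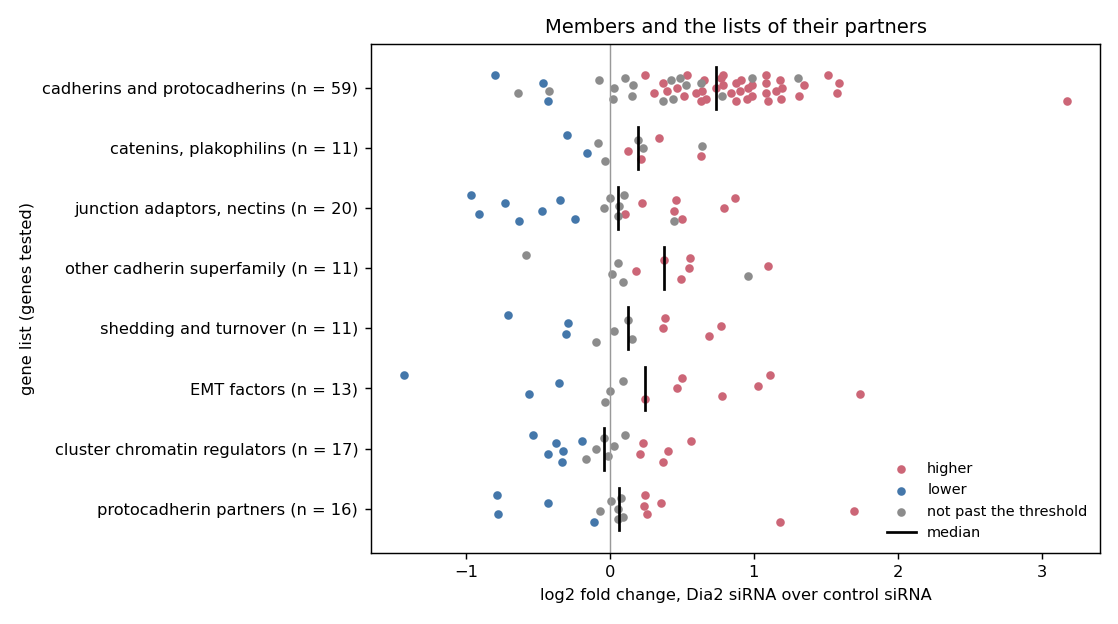
Log2 fold changes (Dia2 siRNA over control siRNA) of the 59 tested members and of the tested genes of 7 lists of partners and regulators, coloured by the call of the edgeR test, with a bar at each median. The members' median is 0.74 and the lists' medians lie between -0.04 and 0.38.

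Markers of other cell types were measured beside these changes. Of 12 neuron and glia markers 6 were tested, 4 were higher (Tubb3, Map2, Mbp and S100b) and 0 lower, and the list summed to 19.3 to 21.1 CPM in control and 32.5 to 34.2 CPM in Dia2 siRNA libraries. Most of the sum was Tubb3 (mean 9.93 CPM in control and 19.3 CPM in Dia2 siRNA libraries) and Map2 (7.82 and 9.62 CPM). Rbfox3 was at 0 in all libraries, Sox10 and Nefl had at most 2 counts, and Snap25, Syt1 and Elavl3 had at most 12 counts. This list moved in the same direction as Cdh10, Cdh18, Cdh19 and the clustered protocadherins, and its part in those results was not tested. Of 12 epithelial markers 2 were tested, 1 higher and 1 lower, with a sum of 57.6 to 64.1 CPM against 27.7 to 28.3 CPM, nearly all of it Krt19, and Epcam at 0. Of 10 blood and macrophage markers 6 were tested, 0 were higher and 4 lower (20.8 to 23 CPM against 13 to 14.4 CPM). Of 9 endothelial markers 4 were tested, 1 higher and 1 lower (2.06 to 2.17 CPM against 1.78 to 2.20 CPM), with Emcn and Erg at 0. Of 8 skeletal muscle markers 2 were tested, 1 higher and 0 lower (50.8 to 58.8 CPM against 61.3 to 64.6 CPM), with Myod1, Myog, Myf5 and Mymk at 0. Cdh1 and Cdh5 belong to the epithelial and endothelial lists as well as to the members.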

How the data were processed

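RNA of 6 libraries, 3 per group, was analysed from 1 table of 23358 genes. Per the file headers, it gives a count and an RPKM value per library and a coding length; 37.8% of those lengths are multiples of 3, so they are not purely coding. The deposited counts are all even, as if each fragment added 2, and the RPKM values deposited beside them follow from count, listed length and a library total in which these genes have a part of 82.6% to 85.8%. The submitters' processing notes name bcl2fastq, TopHat2 2.0.6 and HTSeq, and human builds. The table holds mouse genes, and 99.4% of 20950 rows with a matching symbol overlap that gene in GENCODE M21, so coordinates were read as GRCm38; 92 of 94 members overlap. The sources used here do not state the strand setting or how multiply matching reads were handled, so reads of overlapping or antisense genes may be mixed. Chi-square per degree of freedom between replicates was 6.70 to 85.2, so no library was a copy.

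The members and gene lists were chosen with earlier results of these data known. Counts were filtered with filterByExpr (minimum 10, total 15), scaled by TMM and compared with robust dispersions in edgeR's quasi-likelihood test (edgeR 4.0.16, limma 3.58.1, R 4.3.3), with Benjamini-Hochberg adjustment over all genes tested at 0.05. The standard error is the absolute log2 fold change divided by the square root of F. The script was tested on simulated data. RPKM served for levels and ratios between genes, the counts for all tests. Members were named with a mean of at least 1 CPM in either group, or past the threshold with an absolute log2 fold change of at least 1. Beside them stand Diaph3, Ctnnb1, Ctnna1, Ctnnd1 and up to 4 called genes per list with the largest change; other members and Ctcf are named to account for their group. Alternatives were DESeq2 size factors, upper-quartile factors, no filter, the DESeq2 1.42.0 test, limma-voom, a minimum mean of 1 CPM, a replicate block and each library left out. Halved counts were a further one, and the fits without Rn45s or without the 2 libraries richest in it were chosen after seeing the data. Promoter windows came from RefSeq (GRCm38.p6).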

Additional observations from a re-analysis of the deposited data

How the results depend on the processing

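The counts of members, list genes and all genes, and the 3 cluster sums, stayed within 1.5 times or kept direction and call under the 16 alternatives run. The members called higher numbered 30 to 42, the lowest with a mean CPM of at least 1, which tests fewer genes, and those called lower numbered 3 in each; leaving out each library gave 34 to 42 higher. Of the 39 members called higher, 32 kept that call wherever they were tested, as did all 3 called lower. Of 59 members, 16 changed a call or direction in at least 1 alternative. The replicate block gave 36 members higher and 3 lower. The calls it ended were those of Pcdhb18 (adjusted p = 0.0574), Pcdhb2 (0.0576), Pcdhb9 (0.0549), Ctnna1 (0.0825) and Snai3 (0.0553), and it changed no other call of a gene named. Deviations of same-numbered libraries correlated at -0.19 to -0.02, 0 of 6 libraries correlated best with the library of their own number, and the numbers were not taken to pair the samples.

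The members whose direction reversed had passed in neither direction, and the cause was not tested. With each library left out, the log2 fold change ranged from -0.0021 to 0.046 for Pcdh7 (negative without control replicate 1), from -0.13 to 0.0034 for Pcdhb17 (positive without control replicate 3) and from -0.093 to 0.29 for Pcdhgc4 (negative without control replicate 1). It ranged from -0.42 to 0.78 for Pcdhb7 (negative without Dia2 replicate 1) and from -0.10 to 0.17 for Cdh24 (negative without control replicate 2 or 3 or Dia2 replicate 3). Without the 2 libraries richest in Rn45s, Pcdhb17 gave 0.0022, Cdh24 -0.037 and Pcdhb7 -0.28. Of the 94 members 35 were at 0 or too low to test, and the part of sequencing depth in this was not tested.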
